A study of Mus musculus with 11 samples.

Results

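Cytochrome P450 enzymes are heme proteins that insert an oxygen atom into lipids, steroids, vitamins, drugs and other small molecules. Microsomal members take electrons from the reductase Por and mitochondrial members from the ferredoxin Fdx1, and the families are numbered by the similarity of their proteins. They are best known from liver and the steroid-making glands, while adipose tissue is known for Cyp1b1, Cyp2e1 and for members that act on arachidonic acid and other fatty acids. The genes described here are those of the deposited tables whose symbol is Cyp followed by a digit, with Cyp51 left out, and 35 of the 15453 listed genes met this rule.

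Transcripts were counted by serial analysis of gene expression (SAGE), which reads a short tag beside an NlaIII site near the 3′ end of each mRNA, in epididymal fat (eWAT) taken from male C57BL/6 mice (C57BL/6J in the study's methods). One group was 6 wildtype (WT) mice and the other was 5 mice that inherited an inactivated allele of Mest, an imprinted gene read almost exclusively from the paternal copy, from their father (pKO). All 11 mice were 16 weeks old, and a high fat diet had been fed to them since the age of 8 weeks. The inactive allele lacks exon 3 in every tissue, because the exon was removed in the germline with EIIa-cre, and the maternal allele of the pKO mice was intact. The mice were picked from a larger feeding cohort. The study reports a significantly higher ratio of fat to lean mass in the sequenced WT mice than in the sequenced pKO mice. Their individual adiposity is not in the labels. An effect of the allele on the P450 genes and an effect through fat mass therefore cannot be told apart. In whole fat pads, fewer cells of a type and less RNA per cell cannot be told apart either.

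Mest had 25107 ± 2672 normalized tags in WT against 1663 ± 566 in pKO mice (SD, n = 6 and 5), and the ranges were apart (log2 fold change of -3.99 on the log2(value + 1) scale, adjusted p = 1.2e-06, limma). Its 3′-most tag lies in exon 12, outside the deleted exon, so the tag measures the remaining transcript and not the deletion itself. The libraries held 9659740 to 14825727 tags, and 1 tag was worth 0.836 to 1.19 normalized tags. All 6 adipocyte markers searched were abundant, with summed levels of 656298 to 1066660 in WT and 701298 to 1090680 in pKO mice. Only 2 of 7 markers each of Leydig cells and of the epididymis, neighbours of this fat pad, were in the tables, and their summed levels were at most 20.9 and 40.5 in any mouse.

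The sequences below are the tags that the 3′-most NlaIII site predicts for the genes the results turn on, read from GENCODE M21 transcripts on GRCm38, with the site CATG in capitals and the next bases in lower case. A tag is assumed to be 25 bases long, and the deposited tables list genes and not tags, so which tags were counted for a gene is not shown by them. The predicted tags, with Cyp2c44 listed by GENCODE under its newer symbol Cyp2c23, were as follows.
Cyp4v3 at chr8:45304960-45304984, minus strand, exon 11, 3′ UTR: CATGtttatcagttcagctaaacaa
Cyp2e1 at chr7:140774875-140774899, plus strand, exon 9, 3′ UTR: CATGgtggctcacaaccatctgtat
Cyp2e1, next site upstream, at chr7:140774738-140774762, plus strand, exon 9, end of the coding sequence and 3′ UTR: CATGagacctgctgcccatcattat
Cyp27a1 at chr1:74737736-74737760, plus strand, exon 9, 3′ UTR: CATGtcacgatgtcagattcaacag
Cyp1a1 at chr9:57703367-57703391, plus strand, exon 7, 3′ UTR: CATGtttctcttcaggaagggttga
Cyp2s1 at chr7:25802624-25802648, minus strand, exon 9, 3′ UTR: CATGagagtgctggaaatgtatcct
Cyp2c44 at chr19:44005025-44005049, minus strand, exon 9, 3′ UTR: CATGaaataaattctcaccccaata
Cyp2c70 at chr19:40153534-40153558, minus strand, exon 9, 3′ UTR: CATGgatggctgagaccctgcttct

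All 35 genes had such a tag in their longest principal transcript, and in 32 of them it lay in the 3′ UTR. For 34 genes the exact tag was found beside no NlaIII site in a transcript of another gene, also within the crowded Cyp2j and Cyp4f subfamilies. The exception was Cyp2e1, whose 3′-most tag is also held exactly by transcripts of Fcho2 and Bloc1s3 and, with up to 2 mismatches, by those of 617 other genes. The Cyp2e1 tag at the next site upstream is held by no other gene. Fcho2 had 120 ± 12.7 normalized tags in WT against 128 ± 25.2 in pKO mice (SD, n = 6 and 5). Bloc1s3 had 2308 ± 362 and 3375 ± 731 (SD, n = 6 and 5; log2 fold change 0.53, adjusted p = 0.370, limma). Which site the counts of Cyp2e1 came from, and whether they include tags of other genes, was not tested.

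Of the 35 genes, 14 averaged 50 or more normalized tags in WT or pKO mice, 13 reached a mean of 10 to 50 in the higher genotype and 8 stayed under 10 in both. SAGE counts 1 tag per transcript whatever its length, so levels of different genes are set side by side here as tags. Together the 35 genes took 0.0433% to 0.0637% of all tags in a library. Cyp4v3 alone gave 33.6% of the P450 tags in WT mice, the 3 Cyp2j genes 20.9%, Cyp2e1 14.5%, the 6 Cyp4f genes 9.50% and the 2 Cyp2d genes 6.81%. Cyp2 was the largest family with 14 genes and 46.0% of the P450 tags, followed by Cyp4 with 8 genes and 43.1% and by Cyp1 with 2 genes and 4.57%.

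The sterol and steroid enzymes made up little of the rest. Cyp27a1, the mitochondrial sterol hydroxylase that starts the acidic route of bile acid synthesis, was the only abundant member among them, with 3.98% of the P450 tags in WT mice. Cyp39a1, an oxysterol hydroxylase, gave 0.876%. Cyp7b1, another oxysterol hydroxylase, and Cyp21a1, the steroid hydroxylase of the adrenal cortex, had WT means of 16.8 ± 6.51 and 17.9 ± 6.66 (SD, n = 6). Cyp11a1, which makes pregnenolone from cholesterol, Cyp46a1, the cholesterol hydroxylase of neurons, and Cyp8b1, the hepatic enzyme of cholic acid synthesis, had means under 10 in both genotypes. Among the vitamin enzymes, Cyp26b1, which degrades retinoic acid, had 15.5 ± 5.28 and Cyp2r1, which hydroxylates vitamin D, 22.1 ± 9.47 (SD, n = 6) in WT mice, while Cyp26a1 had 2.49 ± 3.77.

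**Figure D1:**
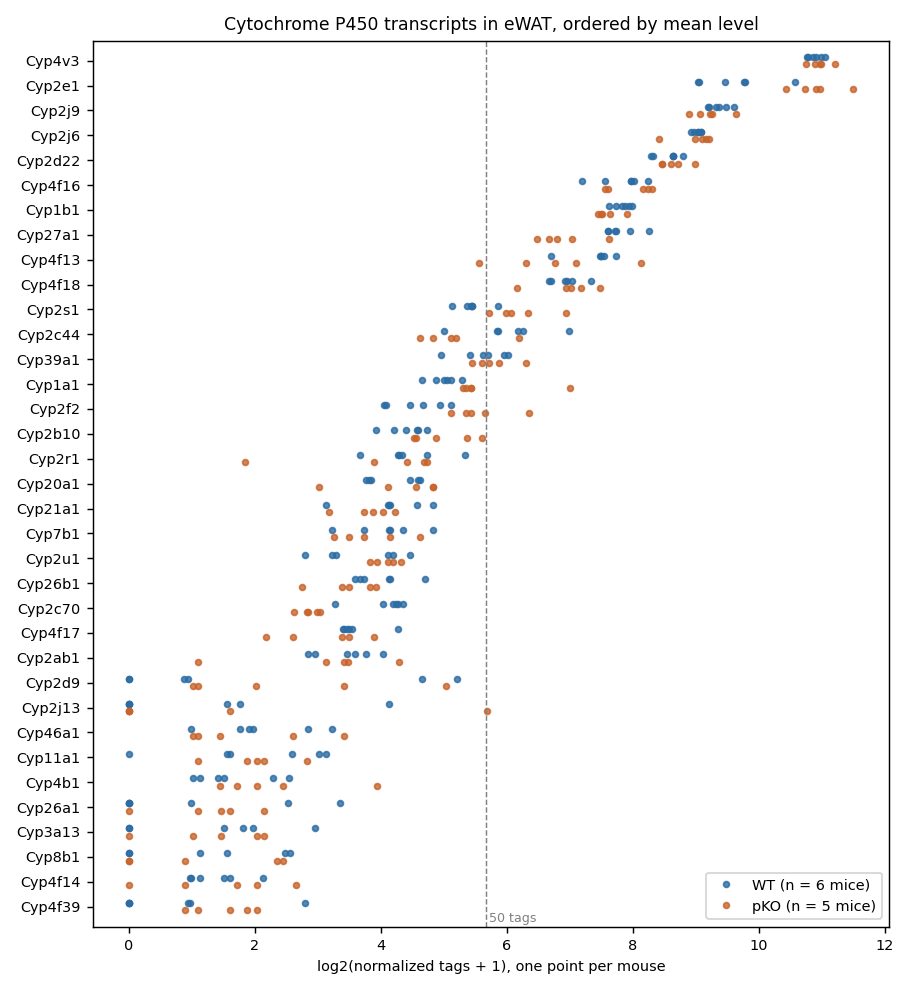
Level of each of the 35 P450 genes in each mouse, as log2(normalized tags + 1) on the horizontal axis, with 6 WT mice in blue and 5 pKO mice in orange and genes ordered by their mean over all mice. Cyp4v3 lies at the top, 14 genes reach a mean of 50 tags (dashed line) in a genotype, and the lowest 8 have means of 1.60 to 3.83 tags over all mice.

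The 8 genes with means under 10 in both genotypes were Cyp11a1, Cyp26a1, Cyp3a13, Cyp46a1, Cyp4b1, Cyp4f14, Cyp4f39 and Cyp8b1. Between 17 and 45 tags were counted for each over all 11 libraries, and 6 of them were listed at 0 in at least 1 mouse. A count of 0 allows a level of up to 3 tags, which is 2.51 to 3.56 normalized tags depending on the library, for counting error only. The highest value of any of them was 14.2, for Cyp4b1 in pKO 3. The 13 genes between were Cyp20a1, Cyp21a1, Cyp26b1, Cyp2ab1, Cyp2b10, Cyp2c70, Cyp2d9, Cyp2f2, Cyp2j13, Cyp2r1, Cyp2u1, Cyp4f17 and Cyp7b1, with means over all mice of 6.68 to 35.0.

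The leading gene did not differ beyond the spread between mice. Cyp4v3, a fatty acid omega-hydroxylase whose human counterpart is mutated in a crystalline retinal dystrophy, ranged from 1739 to 2133 normalized tags in WT mice with a median of 1892. In pKO mice it was 2023, 2015, 2379, 1715 and 1912, so the groups overlapped over most of their range. The means were 1909 ± 154 and 2009 ± 241 (SD, n = 6 and 5), with a log2 fold change of 0.07 and a 95% interval of -0.18 to 0.31 (limma, adjusted p = 0.884).

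The genes of the Cyp2j subfamily did not pass the test either. Cyp2j9 was 663 ± 75.5 (SD, n = 6) in WT and, mouse by mouse, 793, 477, 538, 608 and 601 in pKO, with a 95% interval of the log2 fold change from -0.45 to 0.16. Cyp2j6 lay between 488 and 541 in the 6 WT mice, a coefficient of variation of 4.20%, and only 0.875% of the genes with a WT mean of at least 50 varied less. In pKO mice it was 573, 594, 547, 508 and 341, so pKO 5 was low and 3 of the others lay above every WT mouse. The 95% interval of its log2 fold change was -0.36 to 0.27. Cyp2d22, the mouse gene taken to be nearest to human CYP2D6 in its substrates, was 378 ± 52.8 (SD, n = 6) in WT mice and 508, 387, 353, 353 and 421 in pKO mice (95% interval of the log2 fold change -0.21 to 0.40).

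The only comparison of the design is pKO against WT. With limma on log2(value + 1) over all 15453 genes, 5 genes, or 0.0324%, passed an adjusted p of at most 0.1 while averaging 50 or more tags in a genotype, and 0 of the 35 P450 genes did. The quasi-likelihood test of edgeR on the recovered tags called 0 of the 35 as well, whereas DESeq2 called 3, Cyp2e1 and Cyp2s1 as higher (0.375% of all genes) and Cyp27a1 as lower (0.408%). At an unadjusted p of at most 0.05 (limma), 3 of the 14 better detected genes were higher in pKO mice, Cyp2e1, Cyp2s1 and Cyp1a1, and 2 were lower, Cyp27a1 and Cyp2c44. Of these, Cyp2s1 and Cyp1a1 averaged 50 or more only in pKO mice, and Cyp2c44 only in WT mice. They thus met the minimum mean only through the genotype where they were higher. Over all 9906 genes with such a mean, 480 or 4.85% were higher and 572 or 5.77% were lower by the same rule, and scaling to library totals gave 330 higher and 726 lower with the same 5 P450 genes. The median log2 fold change was 0.04 over the 14 genes and 0.01 over all 9906. The study's methods name DE-Seq for the analysis of the raw counts and significance analysis of microarrays (SAM) for significance. Its list of genes passing an adjusted threshold of 0.1 holds Cyp2e1, higher in pKO. Cyp2s1, Cyp2c44 and Cyp27a1 are absent from that list and are only in its longer one, chosen by unadjusted p (0.05). Both lists were chosen on these samples, so they are no independent evidence of the direction of these genes.

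**Figure D2:**
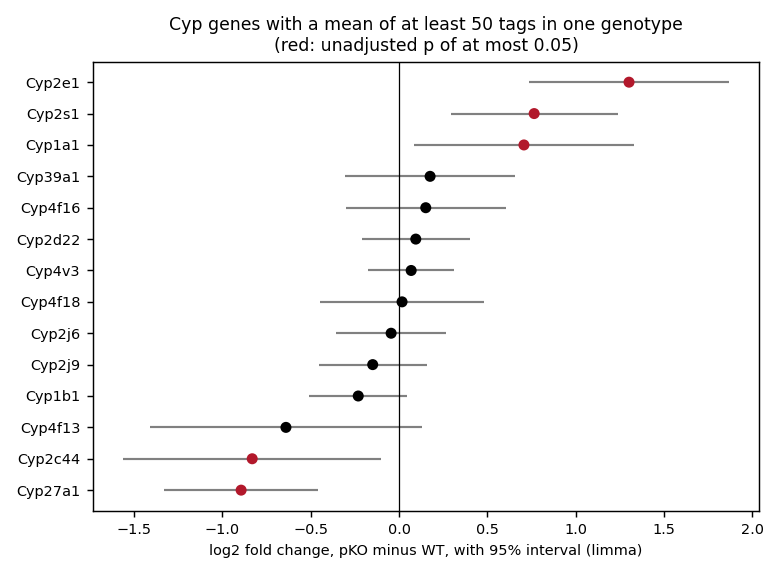
Log2 fold change, pKO minus WT, of the 14 P450 genes that averaged 50 or more normalized tags in a genotype, as points with 95% intervals from limma (6 WT and 5 pKO mice). The 5 red points have an unadjusted p of at most 0.05, from Cyp2e1 at 1.30 to Cyp27a1 at -0.89, and none passed the adjusted threshold by limma.

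Cyp2e1, which oxidises ethanol, acetone and other small molecules, had the widest difference among the 14 genes. Its WT values ran from 523 to 1524 with a median of 787, and the next highest after the 1524 of WT 5 was 876. The pKO values were 2889.6, 2015, 1383, 1927 and 1709. The only overlap was between WT 5 and pKO 3, and 4 of 5 pKO mice lay above every WT mouse. The mean was 837 ± 370.4 in WT against 1985 ± 562 in pKO mice (SD, n = 6 and 5), 2.37 times as high. The log2 fold change was 1.30 (SE 0.26, 95% interval 0.74 to 1.87), with an adjusted p of 0.186 by limma, 0.240 by edgeR and 0.0066 by DESeq2. An exact two-sided permutation test of this gene over all 462 splits of the 11 mice gave an unadjusted p = 0.0065. Cyp2e1 and the other genes given this test below all had an unadjusted limma p of at most 0.05 on the same mice. Their permutation p-values are therefore no separate evidence. Without WT 5 the log2 fold change of Cyp2e1 was 1.495 and the adjusted p 0.0305 (limma), and with each other mouse left out the gene stayed above the adjusted threshold.

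Cyp2e1 also varied widely among WT mice, with a coefficient of variation of 44.2%, more than 96.6% of the genes with a WT mean of at least 50. Its ratio to Cyp4v3 was 0.447 ± 0.223 in WT against 1.01 ± 0.310 in pKO mice (SD, n = 6 and 5). Cyp4v3 was the most abundant P450 transcript in all 6 WT mice, whereas Cyp2e1 led in pKO 1 and pKO 4 and equalled Cyp4v3 in pKO 2. The summed level of the 35 genes was 5298 to 6171 in WT and 6348 to 8004 in pKO mice, so these sums did not overlap. Without Cyp2e1 the sums were 4864 ± 173 and 4830.0 ± 289.6 (SD, n = 6 and 5) and overlapped.

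At an unadjusted p of at most 0.05 (limma), 1 hepatocyte marker, Alb, was higher in pKO mice and 1, Serpina1a, was lower. By this rule 4.2% of all genes were higher and 5.35% lower. Serpina1a had a log2 fold change of -0.68. All 8 markers were in the tables, with summed levels of 222 to 573 in WT and 514 to 1558 in pKO mice. Nearly all of this was Alb, with 310 ± 148 and 941 ± 408 (SD, n = 6 and 5; log2 fold change 1.61, adjusted p = 0.190, limma). The other 7, Apoa1, Apoa2, Ttr, Fgb, Fga, Ahsg and Serpina1a, were at most 42.4 in any mouse, and the liver P450s Cyp8b1 and Cyp2c70 had means of 2.09 and 16.2 in WT and of 1.87 and 6.29 in pKO mice. Mesothelial markers, 5 of 5 detected, had summed levels of 692 to 958 in WT and 789 to 1598 in pKO mice, and the 3 detected of 5 blood markers 375 to 961 and 648 to 1649. The part of these cells in the Cyp2e1 difference was not tested.

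Cyp27a1 had the lowest fold change of the 14. Its WT values ran from 193 to 305 with a median of 211, and its pKO values were 109.9, 129.5, 101, 197 and 88.0. All pKO mice except pKO 4 lay below every WT mouse. The means were 227 ± 43.0 and 125 ± 42.9 (SD, n = 6 and 5), a log2 fold change of -0.89 (SE 0.20, 95% interval -1.33 to -0.46). Its adjusted p was 0.257 by limma, 0.279 by edgeR and 0.0307 by DESeq2, and the exact two-sided permutation test gave p = 0.0065. Without pKO 4 the log2 fold change was -1.07 and the adjusted p 0.0955 (limma), while leaving out any other mouse kept it above 0.1.

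Macrophages are among the cells known to express Cyp27a1, and 7 of 8 macrophage markers were detected. Their summed level was 3517 to 5372 in WT and 3354 to 4397 in pKO mice. Itgam and Itgax had log2 fold changes of -0.72 and -0.90 (adjusted p = 0.370 and 0.441, limma), while Emr1 had 856 ± 151 and 865 ± 271 (SD, n = 6 and 5). The part of macrophages in the Cyp27a1 values was not tested. The other sterol hydroxylase of this level, Cyp39a1, had 49.4 ± 12.6 in WT against 55.5 ± 13.6 in pKO mice (SD, n = 6 and 5), with a 95% interval of the log2 fold change from -0.31 to 0.66.

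Cyp1a1, Cyp1b1 and Cyp2s1 are known targets of the aryl hydrocarbon receptor Ahr, and the part of Ahr in their values was not tested. Cyp1a1, the classic target gene, ran from 24.3 to 37.9 in WT mice with a median of 31.5, and was 42.1, 127, 38.7, 39.7 and 42.0 in pKO mice. The ranges were apart, which 0.717% of the genes with a mean of at least 50 also showed in this direction, but apart from pKO 2 the pKO values sat close above the highest WT value. The means were 31.2 ± 4.65 and 57.9 ± 38.8 (SD, n = 6 and 5). Only pKO 2 was above 50, so Cyp1a1 met that minimum mean through this mouse. The log2 fold change was 0.71 (SE 0.29, adjusted p = 0.467, limma), and the exact permutation test gave its smallest possible unadjusted p of 0.0022. Without pKO 2 the fold change was 0.38 with an unadjusted p of 0.0528 (limma), and without WT 3 it was 0.64 with an unadjusted p of 0.0587 (limma).

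Cyp2s1, an enzyme of epithelia outside the liver, ran from 33.8 to 57.0 in WT mice with a median of 42.2. It was 66.1, 51.6, 62.1, 122 and 79.8 in pKO mice, and 4 of these 5 lay above every WT mouse. The means were 43.0 ± 7.61 and 76.3 ± 27.4 (SD, n = 6 and 5), with a log2 fold change of 0.77 (SE 0.22) and an adjusted p of 0.362 by limma, 0.363 by edgeR and 0.0911 by DESeq2. The exact two-sided permutation test gave p = 0.0065, and the fold change stayed between 0.58 and 0.89 when any mouse was left out. Krt19, an epithelial and mesothelial keratin, was at 374 ± 81.3 in WT against 610 ± 77.6 in pKO mice (SD, n = 6 and 5; log2 fold change 0.73, adjusted p = 0.253, limma). The other mesothelial markers, Msln, Upk3b, Lrrn4 and Wt1, had log2 fold changes of 0.57, 0.26, 0.17 and 0.20. The part of mesothelium in the Cyp2s1 values was not tested.

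Cyp1b1, the member of its family known from stroma and preadipocytes, had 228 ± 20.5 in WT against 195 ± 26.02 in pKO mice (SD, n = 6 and 5). Its log2 fold change was -0.23 with a 95% interval of -0.51 to 0.05 (limma, unadjusted p = 0.0965). Without pKO 3 its unadjusted p was 0.0367 (limma), the only 1 of 11 such fits under 0.05, and without pKO 5 it was 0.180. Cyp1b1 was thus the more abundant Cyp1 gene in each mouse, at 4.02% of the P450 tags in WT mice against 0.550% for Cyp1a1.

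Cyp2c44 is an arachidonic acid epoxygenase. It ran from 30.9 to 126 in WT mice with a median of 64.0, and was 33.5, 72.2, 35.6, 27.4 and 23.5 in pKO mice. The groups overlapped, with WT 5 among the low values and pKO 2 among the high ones. The means were 69.5 ± 31.8 and 38.4 ± 19.5 (SD, n = 6 and 5), and the log2 fold change was -0.83 (SE 0.34, adjusted p = 0.467, limma). The exact two-sided permutation test gave p = 0.0606. Its unadjusted p passed 0.05 without WT 1, WT 4, WT 6, pKO 1, pKO 4 or pKO 5 in turn, where the fold change was -0.81 to -0.64, so it stayed under 0.05 in 5 of 11 such fits. The more abundant Cyp2j genes had log2 fold changes of -0.15 (Cyp2j9) and -0.04 (Cyp2j6).

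The Cyp4f genes code for omega-hydroxylases of leukotrienes and other long fatty acids, and their sum was 542 ± 64.0 in WT against 527 ± 98.6 in pKO mice (SD, n = 6 and 5). Cyp4f16 had 232 ± 56.2 and 257 ± 61.5, and Cyp4f18 had 123 ± 21.5 and 129 ± 39.1 (SD, n = 6 and 5). Cyp4f13 was the most uneven, at 103 in WT 6 against 178 to 212 in the other WT mice, and 107, 77.9, 135, 45.9 and 279 in pKO mice. Thus 1 pKO mouse, pKO 5, lay above every WT mouse while the others lay below 5 of the 6. Its log2 fold change was -0.64 with an unadjusted p of 0.0957 (limma), and without pKO 5 it was -0.98 with an unadjusted p of 0.0042 (limma). That was the only 1 of 11 such fits under 0.05. Without pKO 4 the log2 fold change was -0.34 with an unadjusted p of 0.297 (limma). Most Cyp4f genes of the tables, Cyp4f13, Cyp4f14, Cyp4f16, Cyp4f17 and Cyp4f39, lie within chr17:32452723-32947402 on GRCm38, and Cyp4f18 and Cyp4v3 lie on chromosome 8.

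**Figure D3:**
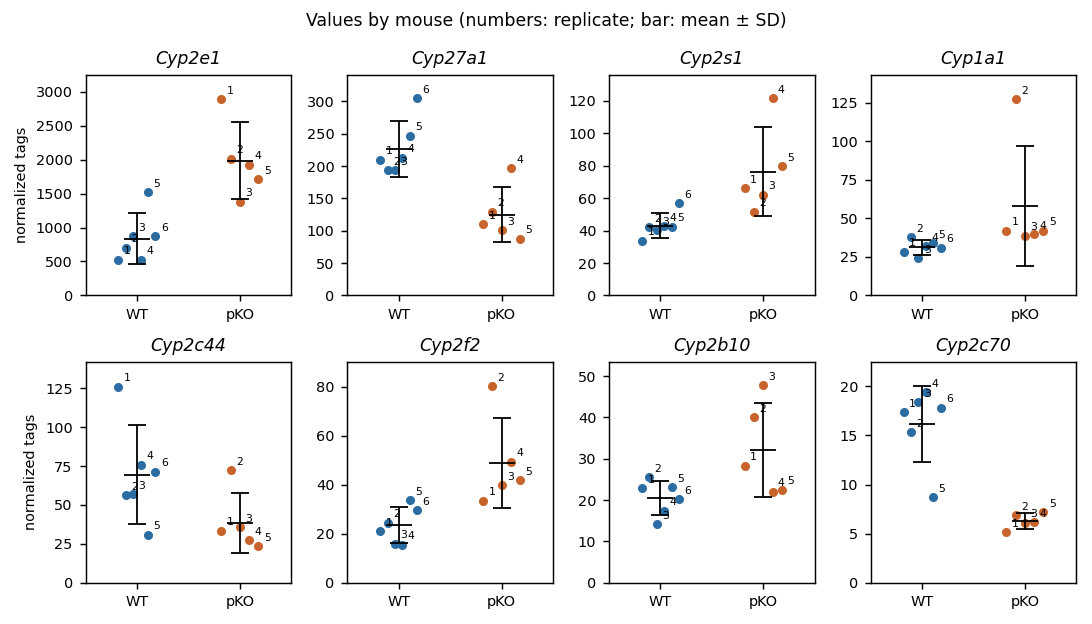
Normalized tags of 8 P450 genes in each mouse (points numbered by replicate) for 6 WT and 5 pKO mice, with bars for the mean ± SD. The ranges of the genotypes are apart for Cyp1a1 and Cyp2c70, Cyp2e1 overlaps only through WT 5 and pKO 3, and Cyp27a1 only through pKO 4 and the WT mice at 193.

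Below a mean of 50, where the values rest on few tags, 3 more genes had an unadjusted p of at most 0.05, and they are named here because of that. With them 5 of the 35 genes were higher and 3 lower by this rule, against 4.2% and 5.35% of all 15453 genes. Cyp2c70, which makes muricholic acids in mouse liver, was 8.68 to 19.4 in WT mice with a median of 17.6, and 5.15, 6.88, 6.11, 6.18 and 7.16 in pKO mice. The ranges were apart, as in 0.673% of all genes in this direction. Its log2 fold change was -1.20 (SE 0.25, adjusted p = 0.194, limma) with p = 0.0043 in the exact permutation test, and 132 tags in all were counted for it.

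The other 2 lie in the Cyp2 gene cluster on chromosome 7 together with Cyp2s1. Cyp2f2, the naphthalene-activating enzyme of lung club cells, was 15.5 to 33.8 in WT mice with a median of 22.8, and 33.5, 80.2, 39.7, 49.4 and 42.0 in pKO mice. Of these, 4 lay above every WT mouse, and the log2 fold change was 1.02 (SE 0.27, adjusted p = 0.302 by limma and 0.0656 by DESeq2). Cyp2b10, a target of the nuclear receptor CAR, had 20.6 ± 4.17 and 32.2 ± 11.4 (SD, n = 6 and 5), a log2 fold change of 0.58 (adjusted p = 0.494, limma), and its unadjusted p stayed under 0.05 in 6 of the 11 fits without a mouse. The positions on GRCm38 are chr7:25802475-25816913 for Cyp2s1, chr7:25897620-25926624 for Cyp2b10 and chr7:27119909-27133660 for Cyp2f2, while Cyp2e1 lies far from them at chr7:140763739-140774987.

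**Figure D4:**
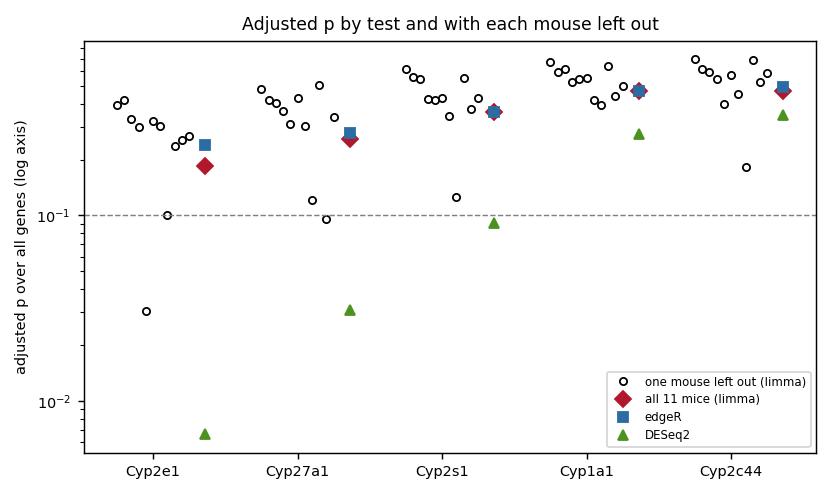
Adjusted p over all genes, on a log axis, for the 5 better detected P450 genes whose unadjusted p was 0.05 or less, from limma with all 11 mice (red), from edgeR (blue) and DESeq2 (green), and from limma with each mouse left out (open circles). DESeq2 lies under 0.1 (dashed line) for Cyp2e1, Cyp27a1 and Cyp2s1, and of the open circles only Cyp2e1 without WT 5 at 0.0305 and Cyp27a1 without pKO 4 at 0.0955 do.

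Enzymes and regulators that serve the P450s were read from a list of 39 genes, of which 35 were in the tables, and 0 of these passed the adjusted threshold by limma or by edgeR. DESeq2 called 2 of them, Ppox and Ephx2, both as higher in pKO mice (0.375% of all genes). At an unadjusted p of at most 0.05, 4 were higher and 2 lower in pKO mice, against 4.2% and 5.35% of all genes. Without WT 1 the total of 6 became 3, and without pKO 2 it became 10. By role, 1 of 9 electron donors and partners was higher and 1 lower, 1 of 8 heme synthesis enzymes was higher, 1 of 12 regulators was higher, and of the 6 other P450s and enzymes of P450 substrates or products 1 was higher and 1 lower.

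Among the electron donors, Por was the most abundant, at 6324 to 8697 in WT mice with a median of 7088, and 10541, 7010.3, 11227, 8999.7 and 9005 in pKO mice. All pKO mice except pKO 2 lay above every WT mouse, and the log2 fold change was 0.33 (SE 0.15, adjusted p = 0.506, limma). Fdx1 was 418 ± 65.3 (SD, n = 6) in WT and 151, 454, 351, 151 and 326 in pKO mice, so pKO 1, pKO 4 and pKO 5 lay below every WT mouse while pKO 2 and pKO 3 were within the WT range of 338 to 511 (log2 fold change -0.67, adjusted p = 0.467, limma).

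Ephx2, the soluble epoxide hydrolase that converts the epoxides made by Cyp2c and Cyp2j enzymes into diols, had WT values of 195 to 322 with a median of 236. In pKO mice it was 730 (pKO 1), 568, 497, 267 and 299. The first 3 pKO mice were far above the WT range and pKO 4 and pKO 5 were inside it, with a log2 fold change of 0.86 (SE 0.24, adjusted p = 0.358 by limma, 0.299 by edgeR and 0.0399 by DESeq2). Ppox, an enzyme of heme synthesis, was 35.9 to 57.0 in WT and 82.4, 76.8, 80.4, 60.0 and 86.0 in pKO mice, with ranges apart and a log2 fold change of 0.77 (SE 0.18, adjusted p = 0.268 by limma, 0.270 by edgeR and 0.0255 by DESeq2). Ranges apart in this direction were seen in 0.717% of the genes with a mean of at least 50. Ppox reached that mean only in pKO mice, with 45.1 ± 9.31 in WT against 77.1 ± 10.1 (SD, n = 6 and 5). Alas1, the rate-limiting enzyme of that pathway, had 3387 ± 417 and 2755 ± 1064 (SD, n = 6 and 5), a log2 fold change of -0.36 with a 95% interval of -0.78 to 0.06.

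Ahr itself had 160 ± 27.5 (SD, n = 6) in WT and 182, 246, 221, 169 and 287 in pKO mice (log2 fold change 0.46, adjusted p = 0.444, limma), and pKO 1 and pKO 4 were within the WT range. The pKO mouse with the highest Cyp1a1, pKO 2, had the second highest Ahr, while pKO 5, with the highest Ahr, had a Cyp1a1 of 42.0. A relation between Ahr and Cyp1a1 was not tested. Tbxas1, the P450 that makes thromboxane, was low, with 12.4 ± 4.803 and 5.91 ± 3.23 (SD, n = 6 and 5; log2 fold change -1.003, adjusted p = 0.473, limma). Its relative Ptgis, the prostacyclin synthase, had 102 ± 13.3 and 129 ± 53.3 (SD, n = 6 and 5).

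**Figure D5:**
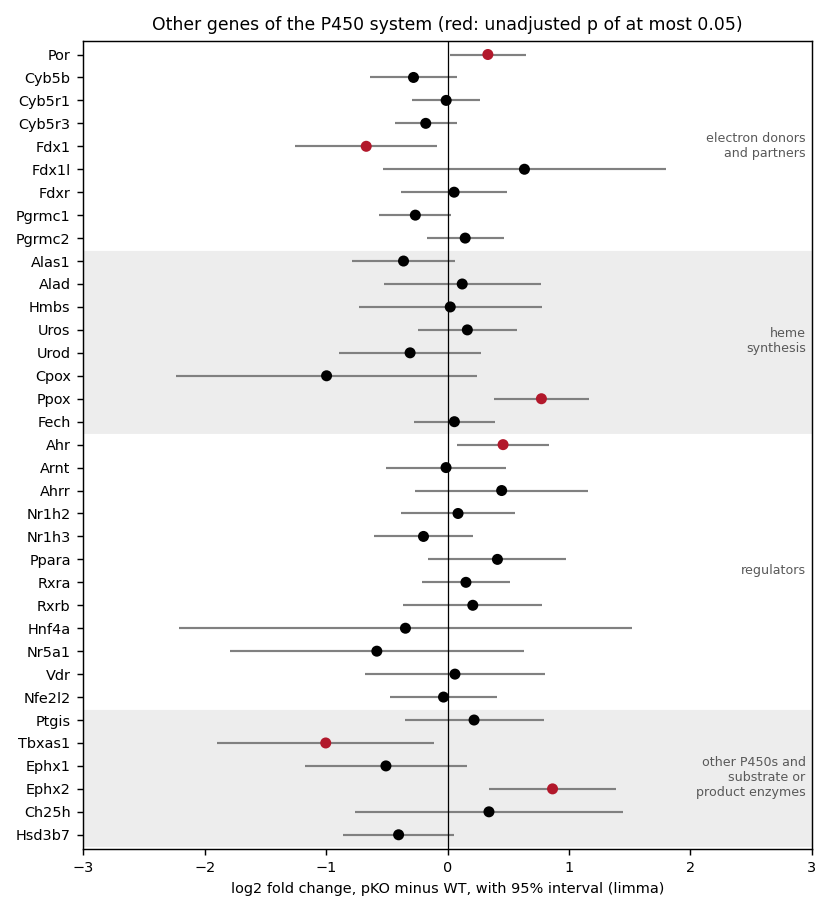
Log2 fold change, pKO minus WT, of the 35 detected genes that serve the P450 enzymes, grouped by role, as points with 95% intervals from limma (6 WT and 5 pKO mice). Por, Ppox, Ahr and Ephx2 lie to the right and Fdx1 and Tbxas1 to the left of 0 with an unadjusted p of at most 0.05 (red), and none passed the adjusted threshold by limma.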

How the data were processed

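SAGE libraries of eWAT from 6 WT and 5 pKO mice were made with NlaIII and sequenced on the SOLiD platform. The authors assigned tags to genes with the SOLiD SAGE software, which they had altered, and the submitters' processing notes name mm10 and edgeR 3.2.3, while the annotation and the gene filter are not given in the sources used here. The deposited values are a normalized signal per gene and mouse. All of them (100%, tolerance 0.01) were whole multiples of the value of 1 tag, so they are tag counts divided by a library factor, and the counts were recovered from them. Depth was 9659740 to 14825727 tags, and every pair of libraries differed beyond sampling noise.

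The values were tested between genotypes as log2(value + 1) with limma 3.58.1 (trend), without covariates, over all 15453 genes with Benjamini-Hochberg adjustment. As in the study, a call needed an adjusted p of 0.1 or less, and an average of 50 or more in WT or pKO mice. Fold changes are pKO minus WT and understate those of low genes. On the recovered tags, edgeR 4.0.16 (quasi-likelihood) called 1 gene higher and 4 lower, and DESeq2 1.42.0 was run as another alternative. The fits were tested on simulated data. Single genes were also given an exact two-sided permutation test over 462 splits, whose smallest p is 0.0022. Its p-values are not adjusted for the number of genes. Intervals are 95%. No sign of pairing by replicate number was seen: residuals of same-numbered WT and pKO mice correlated at -0.092 to 0.139 over 5 pairs. The 25 other pairs correlated at -0.328 to 0.280, and so few same-numbered pairs cannot exclude a pairing. No sequencing batch is given in the labels.

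Named with levels were all P450 genes that averaged 50 or more in WT or pKO mice. Given by mouse were those with an unadjusted p of at most 0.05 and the 5 with the highest mean. Named from the 39 partner genes were those with an unadjusted p of at most 0.05 and Por. Other genes named were chosen after their values were seen. The P450 genes, the lists of partners and markers and the tests were chosen with earlier results of these data known. Tags and gene positions were read from GENCODE M21 (GRCm38), in which all 35 genes were found, 1 by an older symbol, among 99 protein-coding Cyp genes, and the others were not analysed here. Endothelial and fibroblast markers (5 of 5 each) had summed levels of 3670.3 to 5244 and 26894 to 31915 in WT and 3877 to 5152 and 26029.8 to 37905 in pKO mice.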

Additional observations from a re-analysis of the deposited data

Results flagged for a closer look

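In 8 of 68 groups (34 P450 genes in each genotype), 1 mouse lay farther from the nearest other mouse, relative to the range of its group, than Dixon's 95% limit allows. For normally distributed values chance alone gives about 1 in 20, or 3.4. The limit was applied to normalized tags without a log, which need not be so distributed. The 8 against 3.4 therefore shows no excess by itself. Cyp2e1 was at 1524 in WT 5 against 523 to 876 in the other WT mice. Cyp1a1 was at 127 in pKO 2 against 38.7 to 42.1 in the other pKO mice, and Cyp2c44 in the same mouse at 72.2 against 23.5 to 35.6. Cyp4f13 was at 103 in WT 6, below the 178 to 212 of the other WT mice, and Cyp4f17 at 18.4 in WT 3 against 9.50 to 10.6. Cyp2j13 was at 16.5 in WT 4 and at 50.6 in pKO 1, against at most 2.37 and 2.04 in the others of each genotype. Cyp2d9 was at 31.8 in pKO 1 against 1.02 to 9.71 in the other pKO mice.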

How the results depend on the processing

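The number of P450 genes called by the adjusted test was 3 with DESeq2, 0 to 1 when a mouse was left out (1 without WT 5, Cyp2e1, and 1 without pKO 4, Cyp27a1), and 0 under the other alternatives. The number higher at an unadjusted p of at most 0.05 was 5 with a minimum mean of 20 in place of 50, which adds Cyp2f2 and Cyp2b10, and 2 to 4 when a mouse was left out. The share of all genes at a minimum mean of 20 is not given here. The number lower was 1 to 3 when a mouse was left out, and 1 without WT 1, WT 4, WT 6, pKO 1 or pKO 4, each time Cyp27a1. Partner genes at that p numbered 3 to 10 when a mouse was left out. The 10 came without pKO 2, where the numbers over all genes were also the highest. With the replicate block, which uses 10 mice, 0 P450 genes were called, 3 were higher, 3 lower (Cyp4f13 was added) and 3 partner genes had such a p. The same 10 mice without the block, an alternative chosen after seeing the data, gave 1 lower P450 gene and 4 partner genes. Over all genes they gave 426 higher and 531 lower. Over all genes, calls by the adjusted test went from 1 higher and 4 lower to 26 and 65 without pKO 2, and to 58 and 63 with DESeq2. Without WT 5 they were 4 and 8, and without pKO 4 they were 1 and 5. Of 22 alternatives, Cyp2e1, Cyp27a1 and Cyp2s1 kept their direction and their side of the unadjusted threshold in 22, Cyp1a1 in 20 and Cyp2c44 in 15, and none of these 5 genes changed direction. The cause of these differences was not tested. Genes under about 50 tags rest on too few tags for small differences to show, and the counted site of Cyp2e1 is not known.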

Other observations

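Cyp2d9 and Cyp2j13 were near 0 in most mice and high in a few, in both genotypes. Cyp2d9 was 35.9 in WT 4, 24.1 in WT 5, 31.8 in pKO 1 and 9.71 in pKO 4, and at most 3.05 in the other 7 mice. Cyp2j13, in another subfamily and on another chromosome, was 16.5 in WT 4 and 50.6 in pKO 1, and at most 2.37 elsewhere. Genes of other families had high values in the same mice, among them Dao, a D-amino acid oxidase, with 249 in WT 4, 87.8 in WT 5 and 444 in pKO 1 and at most 15.9 in the others. Calml3, a calmodulin-like protein of epithelia, was at 271, 62.7 and 509.9 in these mice, and Ccdc153 at 64.1, 39.6 and 87.6. These genes were picked after their values were seen. The 2 listed epididymis markers that were in the tables, Defb20 and Rnase10, had summed levels of 6.80 in WT 4, 40.5 in WT 5, the highest of all mice, and 10.3 in pKO 1, against 1.83 to 16.3 in the other 8 mice, and the source of these tags was not tested.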
